A study of Homo sapiens with 6 samples.

Results

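The genes described here lie side by side on the long arm of chromosome 17, in a stretch around band 17q24 with start positions from 62200000 to 68000000 (hg19). Members were every gene model there with a symbol found once in the deposited tables. AXIN2, WIPI1 and symbols beginning PSM or ABCA were left out. This gave 56 members of 65 models in the window, out of 26885 models with a unique symbol. The window was chosen by the values described below, the RNA difference between resistant and control cells, so that difference is given as a description of the members and supports nothing by itself.

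Total RNA was sequenced from the human prostate carcinoma line PC-3, in 2 groups of 3 libraries. GDC-R cells (PC-3-GDC-R) were kept continuously under GDC-0068 (ipatasertib), which blocks the AKT kinases, and control cells received its vehicle DMSO in parallel. Both groups were at passages 20-30 and grew in RPMI medium with fetal bovine serum. Separate cultures are not stated for the libraries, so errors and p-values cover only differences among these samples, which may be technical.

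The members share a place, not a pathway. Among them are SMURF2, a ubiquitin ligase that acts on receptors and SMAD proteins of TGF-beta signalling, the signalling kinases PRKCA and MAP2K6, and PRKAR1A, which holds the cAMP-dependent kinase inactive. Others serve the nucleus: BPTF is the large chromatin-reading subunit of the remodelling complex NURF, DDX5 is an RNA helicase, KPNA2 is an importin that carries proteins through the nuclear pore, and NOL11 works in ribosome production. The calcium-channel subunits CACNG1, CACNG4 and CACNG5, the endothelial adhesion molecule PECAM1 and the liver protein APOH are best known from other tissues.

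Libraries held 35562400 to 44279078 gene fragments. Control replicate 1 stood apart by base composition: its deviation from the control mean followed transcript GC content with rho -0.75 (Spearman, 12503 genes), against 0.59 and 0.64 in control replicates 2 and 3. The epithelial genes KRT8, KRT18 and EPCAM were at 132.3 to 441 FPKM (fragments scaled by model length and library depth) in every library. The leukocyte gene PTPRC, the endothelial gene VWF and the fibroblast gene COL3A1 were at or below 0.160 FPKM. Several cell-type markers separated by group. The macrophage marker CD68 was at 15.4 to 16.2 FPKM in control and 34.7 to 36.7 FPKM in GDC-R cells, and the collagen gene COL1A1 at 2.16 to 2.94 and 1.248 to 1.60 FPKM. EPCAM was at 147.5 to 177.0 FPKM in control and 132.3 to 134.2 FPKM in GDC-R cells, and KRT18 at 375 to 415 and 420.3 to 441 FPKM. The part of these in the results was not tested. In bulk RNA, fewer cells expressing a gene and less RNA per cell cannot be told apart.

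Most measured members were modestly higher in GDC-R cells, but the stretch was not uniform. Of the 56 members, 32 reached a mean of 1 FPKM over the 6 libraries and entered the fit. Their median log2 fold change (GDC-R over control) was 0.40, against -0.01 over all 13070 genes tested, with 28 values above zero and 4 below. The differences were mostly small: 10 members lay between 0.25 and 0.5 and 7 between 0 and 0.25, while 7 lay between 0.5 and 1 and 4 above 1. In edgeR's quasi-likelihood test 21 members were higher at an adjusted p under 0.05, where 24.5% of all tested genes were, and 1 (MAP2K6) was lower, where 25.7% were. Lower members numbered 2 without control replicate 1, 2 or 3, the added gene being NOL11, MILR1 and NOL11 in that order. In 25 members every GDC-R library lay above every control library, as in 31.9% of all tested genes, and in 2 every GDC-R library lay below, as in 28.5%. Because the rule used this contrast, nothing is read from these counts, and MIR6080 and ARSG reached the 1 FPKM filter only through their GDC-R values.

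**Figure D1:**
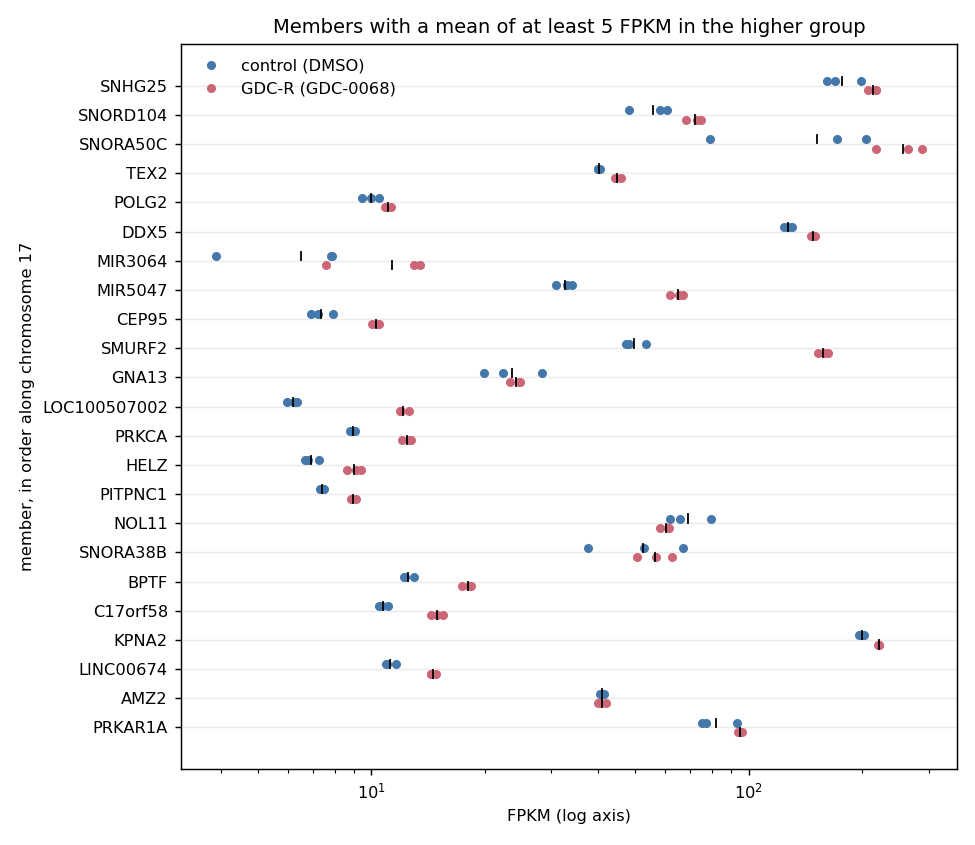
Deposited FPKM (log axis) of the 23 members with a mean of at least 5 FPKM in the higher group, in order along the chromosome; points are single libraries (blue control, red GDC-R) and black ticks group means. SMURF2 shows the widest gap, from 49.7 to 157.7 FPKM, while MIR3064, GNA13, AMZ2 and SNORA38B overlap between groups.

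SMURF2 (chromosome 17, 62540735 to 62658386, minus strand) differed more than any other member at a comparable level. It stood at 53.6, 48.1 and 47.5 FPKM in control replicates 1 to 3 and at 162.1, 152.5 and 158.4 FPKM in GDC-R replicates 1 to 3. The groups were far apart, and the means were 49.7 ± 3.34 and 157.7 ± 4.82 FPKM (SD, n = 3 each), which is 3.13-fold, or 1.64 ± 0.06 (SE) as a log2 fold change. Its neighbours on the chromosome did not share that size: CEP95 before it was at 0.47 ± 0.07 and the pseudogene transcript ARHGAP27P1-BPTFP1-KPNA2P3 after it at 0.47 ± 0.13.

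MAP2K6 (67410838 to 67550002, plus strand), a kinase that switches on the p38 stress kinases, is the last tested member and went the other way. It stood at 2.97, 2.79 and 2.72 FPKM in control replicates 1 to 3 and at 1.38, 1.55 and 1.59 FPKM in GDC-R replicates 1 to 3. Every GDC-R library was below every control library, with means of 2.83 ± 0.130 and 1.51 ± 0.115 FPKM (SD, n = 3 each), and the log2 fold change was -0.93 ± 0.08 (SE). MAP2K6 overlaps the opposite-strand model LOC105371880, which had at most 7 fragments in any library.

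The sequences directly upstream of SMURF2 and MAP2K6 are shown because SMURF2 had the highest log2 fold change among members with a mean of at least 5 FPKM in the higher group, and MAP2K6 was the only tested member called lower. Each line gives the 250 bases before the annotated start, 5′ to 3′ on the gene's strand, from RefSeq (GRCh38.p14, another build than that of the tables), with SMURF2 at chr17:64662308-64662557, minus strand, and MAP2K6 at chr17:69414447-69414696, plus strand. Capitals mark GGGCGG, the GC box read by SP1, or its reverse complement.
SMURF2: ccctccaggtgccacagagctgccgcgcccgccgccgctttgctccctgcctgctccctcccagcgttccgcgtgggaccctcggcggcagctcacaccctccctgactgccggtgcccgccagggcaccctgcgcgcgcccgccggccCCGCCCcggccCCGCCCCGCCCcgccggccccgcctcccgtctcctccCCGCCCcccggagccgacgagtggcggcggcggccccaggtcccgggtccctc
MAP2K6: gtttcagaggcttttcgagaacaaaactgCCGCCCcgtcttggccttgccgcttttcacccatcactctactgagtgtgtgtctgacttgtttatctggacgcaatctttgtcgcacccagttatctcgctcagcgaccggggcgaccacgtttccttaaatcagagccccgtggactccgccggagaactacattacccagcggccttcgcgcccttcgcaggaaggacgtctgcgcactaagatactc

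The SMURF2 window was 82.0% G and C and held 4 GC boxes on both strands together, of which 2 share bases, and the MAP2K6 window was 55.6% G and C and held 1. A GC box was present in 42.6% of the 35116 promoter windows of that length in the table. Neither window held the CCAAT box, the TATA-box letters TATAAA, the FOXO letters GTAAACA, the AP-1 letters TGANTCA, the TEAD letters GGAATG, the SMAD palindrome GTCTAGAC or the CRE letters TGACGTCA on either strand. Those were present in 32.0%, 10.7%, 2.98%, 6.57%, 11.9%, 0.182% and 1.65% of all windows. The table held a promoter for 26 of the 56 members.

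**Figure D2:**
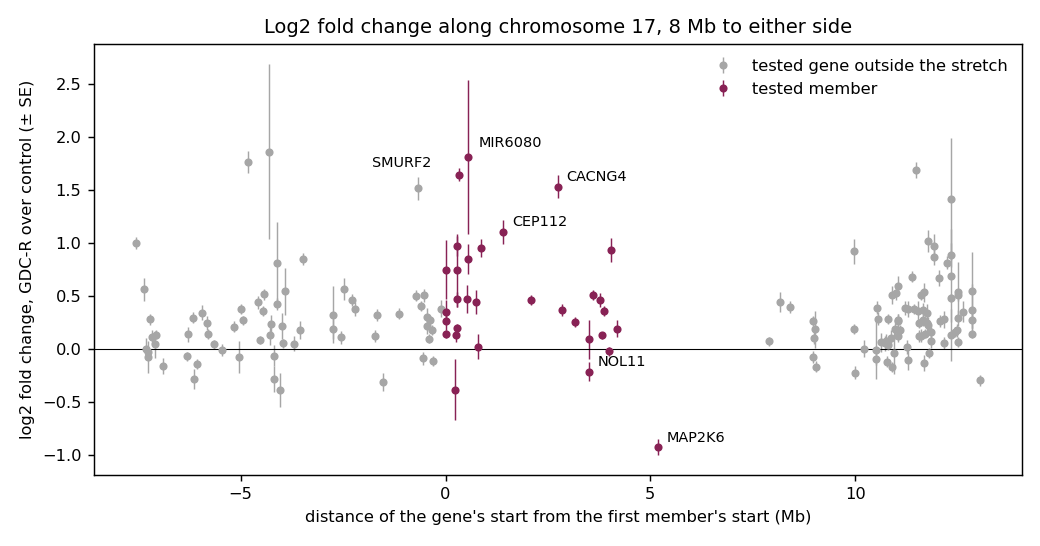
Log2 fold change (± SE) of tested genes against the distance of their start from the first member's start, in Mb; dark points are members and grey points other tested genes up to 8 Mb beyond either end of the stretch. SMURF2 at 0.317 Mb reaches 1.64, MIR6080 at 0.554 Mb has the widest error among the members (1.81 ± 0.73), and MAP2K6 at 5.19 Mb is at -0.93. Some genes outside the stretch reach similar values: MIR21 (1.86 ± 0.83), YPEL2 (1.76 ± 0.10), ITGB4 (1.69 ± 0.07) and ACE (1.52 ± 0.11).

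At the start of the stretch lie the host transcript SNHG25 and small nucleolar RNAs, which guide chemical changes on other RNAs. SNHG25 was at 161.8, 169.6 and 198.4 FPKM in control replicates 1 to 3 and at 206.8, 217.9 and 217.2 FPKM in GDC-R replicates 1 to 3, a log2 fold change of 0.26 ± 0.08 (SE). SNORD104, inside SNHG25 on the same strand, was at 48.2, 58.4 and 60.7 FPKM in control and at 74.6, 73.1 and 68.3 FPKM in GDC-R libraries (0.35 ± 0.11). Fragments of these overlapping models cannot be told apart. SNORA50C was at 79.3, 204.2 and 171.1 FPKM in control replicates 1 to 3 and at 288.5, 265.3 and 218.2 FPKM in GDC-R replicates 1 to 3. Control replicate 1 was far below the other control libraries, and the SNORA50C log2 fold change of 0.75 ± 0.28 became 0.44 without it. SNORA50C did not pass the threshold with all libraries and passed it without control replicate 1 or 2. SNHG25 lost its call without control replicate 2 or any GDC-R library, and SNORD104 lost it without control replicate 1 or GDC-R replicate 1 or 2.

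TEX2, a lipid-transfer protein of the endoplasmic reticulum, was the steadiest of the next group. It was at 40.0, 40.0 and 40.3 FPKM in control replicates 1 to 3 and at 44.4, 45.8 and 44.6 FPKM in GDC-R replicates 1 to 3 (log2 fold change 0.14 ± 0.04). POLG2, the accessory subunit of the mitochondrial DNA polymerase, was at 9.96, 10.5 and 9.46 FPKM in control and at 10.9, 11.3 and 10.9 FPKM in GDC-R libraries (0.13 ± 0.07). For both genes the groups did not overlap, and the ratios were 1.11 and 1.09. POLG2 did not pass the threshold, with all libraries or with any single library left out. TEX2 lost its call without control replicate 2 or GDC-R replicate 2 or 3.

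DDX5, an RNA helicase and transcriptional coactivator, stood at 130.2, 124.4 and 127.6 FPKM in control replicates 1 to 3 and at 148.0, 146.0 and 149.9 FPKM in GDC-R replicates 1 to 3. The groups were separate by a small margin, with a log2 fold change of 0.20 ± 0.04. CEP95, a centrosomal protein gene that starts head to head with DDX5 and overlaps it on the opposite strand, was at 7.91, 6.90 and 7.24 FPKM in control and at 10.1, 10.4 and 10.5 FPKM in GDC-R libraries (0.47 ± 0.07). The strand setting of the counting is not given in the sources used here, so fragments in that overlap may not be separable.

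The microRNA models MIR5047 and MIR3064 lie inside DDX5 on the same strand. MIR5047 was at 34.1, 31.0 and 33.0 FPKM in control replicates 1 to 3 and at 62.1, 67.0 and 65.5 FPKM in GDC-R replicates 1 to 3 (log2 fold change 0.97 ± 0.10). The MIR5047 groups were far apart, on 116 to 131 fragments per control library and 209 to 281 per GDC-R library. For MIR3064 the control libraries held 20, 20 and 9 fragments and the GDC-R libraries 30, 21 and 33, and the groups overlapped in FPKM (0.74 ± 0.34). In GENCODE 29 (GRCh38) the mature miR-5047 and the MIR3064 hairpin lay in no exon of the 3 protein-coding DDX5 transcripts that span them, and in an exon of 1 of 2 retained-intron transcripts. Fragments of these models and of unspliced DDX5 RNA cannot be told apart, and mature microRNAs were not measured here.

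The mature sequences are shown to identify the products of these models, from RefSeq (chromosome 17, GRCh38.p14, minus strand), 5′ to 3′, with the seed, bases 2 to 8, in capitals. The 3 seeds differ from each other.
hsa-miR-5047: uUGCAGCUgcgguuguaaggu
hsa-miR-3064-5p: uCUGGCUGuuguggugugcaa
hsa-miR-3064-3p: uUGCCACAcugcaacaccuuaca

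Between SMURF2 and PRKCA, the abundant member was GNA13, the alpha subunit of the G protein G13, which relays signals from cell-surface receptors. It was at 28.3, 22.4 and 19.9 FPKM in control replicates 1 to 3 and at 24.6, 23.3 and 24.8 FPKM in GDC-R replicates 1 to 3. The groups overlapped (log2 fold change 0.02 ± 0.11). Control replicate 1 was again the library apart: without it the value was 0.18, and the gene then passed the threshold. Directly beside it, the noncoding LOC100507002 was at 6.36, 6.23 and 5.97 FPKM in control and at 12.6, 11.9 and 12.001 FPKM in GDC-R libraries, 1.94-fold higher (0.95 ± 0.08).

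CEP112, another centrosomal protein gene, spans 63631658 to 64188249. It stood at 2.37, 2.01 and 1.75 FPKM in control replicates 1 to 3 and at 4.43, 4.68 and 4.31 FPKM in GDC-R replicates 1 to 3, with no overlap (log2 fold change 1.11 ± 0.11). PRKCA, which encodes protein kinase C alpha, follows at 64298926 to 64806862. It was at 9.07, 8.92 and 8.81 FPKM in control and at 12.04, 12.6 and 12.8 FPKM in GDC-R libraries, 1.38-fold higher (0.46 ± 0.05). PRKCA contains the opposite-strand model PRKCA-AS1, which had 0 to 8 fragments per library.

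Of the 3 neighbouring CACNG genes, auxiliary subunits of calcium channels or of AMPA receptors, only CACNG4 reached the filter. It stood at 0.971, 1.07 and 1.17 FPKM in control replicates 1 to 3 and at 2.87, 3.44 and 3.06 FPKM in GDC-R replicates 1 to 3, 2.89-fold higher (log2 fold change 1.53 ± 0.11). CACNG5 had 0 fragments in all 6 libraries, which allows up to 3 per library by counting error alone, and CACNG1 had 0 to 4.

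The next members carried small and similar differences. HELZ, an RNA helicase, was at 7.27, 6.66 and 6.80 FPKM in control replicates 1 to 3 and at 8.60, 9.09 and 9.38 FPKM in GDC-R replicates 1 to 3 (log2 fold change 0.37 ± 0.06). PITPNC1, a phosphatidylinositol transfer protein, was at 7.30, 7.49 and 7.46 FPKM in control and at 8.84, 9.11 and 8.88 FPKM in GDC-R libraries (0.25 ± 0.05). In neither gene did the groups overlap.

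NOL11, a factor for transcription and processing of ribosomal RNA, was an exception. It was at 79.7, 65.7 and 61.8 FPKM in control replicates 1 to 3 and at 61.7, 58.2 and 61.3 FPKM in GDC-R replicates 1 to 3. All GDC-R libraries were below all control libraries, narrowly at the nearest point, and control replicate 1 was far above the rest. The log2 fold change was -0.21 ± 0.09 and became -0.09 without control replicate 1, though it then passed the threshold. SNORA38B, inside NOL11 on the same strand, was at 37.5, 67.2 and 52.7 FPKM in control and at 62.5, 56.8 and 50.6 FPKM in GDC-R libraries, with overlapping groups (0.09 ± 0.19).

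BPTF (65821780 to 65980494) and its neighbours were higher again. It stood at 12.98, 12.3 and 12.2 FPKM in control replicates 1 to 3 and at 17.4, 18.2 and 18.4 FPKM in GDC-R replicates 1 to 3, 1.42-fold higher (log2 fold change 0.51 ± 0.05). C17orf58 was at 10.7, 11.1 and 10.5 FPKM in control and at 15.5, 15.0 and 14.4 FPKM in GDC-R libraries (0.46 ± 0.06). LINC00674, a noncoding gene, was at 11.6, 11.03 and 10.9 FPKM in control and at 14.4, 14.4 and 14.8 FPKM in GDC-R libraries (0.36 ± 0.05). Each of these genes had separate groups.

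KPNA2 had the highest mean control FPKM of the members and one of the smaller differences. It stood at 196.4, 202.8 and 199.8 FPKM in control replicates 1 to 3 and at 222.1, 220.5 and 221.7 FPKM in GDC-R replicates 1 to 3, 1.09-fold higher (log2 fold change 0.13 ± 0.03). The groups did not overlap, but the call was lost with any single GDC-R library left out, with a replicate block and without a filter on low values. Processed copies of KPNA2 and BPTF, such as the pseudogene transcript in the same stretch, may share fragments with them.

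AMZ2, a zinc metallopeptidase gene, did not differ by more than its error. It was at 41.0, 41.5 and 40.3 FPKM in control replicates 1 to 3 and at 40.6, 39.9 and 42.01 FPKM in GDC-R replicates 1 to 3 with overlapping groups (log2 fold change -0.02 ± 0.04). Its pseudogene AMZ2P1, which starts at 62962668 and may share fragments with it, was at 1.36 ± 0.148 and 1.88 ± 0.146 FPKM (SD, n = 3 each; 0.44 ± 0.11). ARSG, a lysosomal sulfatase directly after AMZ2, was at 0.888, 0.789 and 0.939 FPKM in control and at 1.66, 1.61 and 1.80 FPKM in GDC-R libraries (0.94 ± 0.11). PRKAR1A was at 93.2, 77.3 and 75.4 FPKM in control replicates 1 to 3 and at 95.0, 96.0 and 93.6 FPKM in GDC-R replicates 1 to 3. Control replicate 1 nearly reached the GDC-R libraries, and the PRKAR1A log2 fold change of 0.19 ± 0.08, which did not pass the threshold, became 0.30 without it and then passed. The PRKAR1A model overlaps ARSG, FAM20A and a model that the rule leaves out. ARSG also overlaps SLC16A6 on the opposite strand, and fragments in these overlaps may not be separable. Per library ARSG had 87 to 197 fragments and PRKAR1A 13895 to 21055.

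Members at low levels differed in both directions. PECAM1, an endothelial marker, had 138, 166 and 164 fragments in the control libraries, against 34, 74 and 57 in the GDC-R libraries, with means of 0.938 ± 0.122 and 0.319 ± 0.0857 FPKM. RGS9, a regulator of G protein signalling known from photoreceptors and striatum, had 9, 5 and 4 fragments in control and 31, 36 and 41 in GDC-R libraries. MIR6080 had the highest log2 fold change of the tested members, 1.81 ± 0.73, on 1 to 2 fragments in control and 3 to 11 in GDC-R libraries. PLEKHM1P1, a pseudogene whose parent may share fragments, was at 1.22 ± 0.167 and 2.21 ± 0.2998 FPKM (0.85 ± 0.14), and MILR1, a mast cell receptor gene, was at 3.08 ± 1.10 and 2.35 ± 0.559 FPKM with overlapping groups (-0.38 ± 0.29). In all, 24 members fell below the filter, of which 7 had 0 fragments in every library: CRAT40, CACNG5, MIR548AA2, MIR548D2, MIR4524A, MIR4524B and LINC01497. Among the 24, 4 had all GDC-R libraries above all control libraries: ARHGAP27P1, LRRC37A3, RGS9 and LOC440461, the last on 1 to 7 fragments per library. PECAM1 had them below. Of all tested genes 31.9% and 28.5% did so, and the shares over all genes below the filter are not given, so nothing is read from these counts.

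The signed log2 fold change was set beside other properties of the members as a description. With the control level its Spearman's rho was -0.42 over the 32 tested members and -0.26 over all 13070 tested genes, but the control level is also the denominator of the fold change, so nothing is read from it. With start position the rho was -0.17. With mRNA size it was -0.17 over all tested members and -0.0023 over the 25 of at least 200 bases. With transcript GC content it was 0.35 over 31 members and 0.26 over the 24 of at least 200 bases, against 0.16 over 12503 genes. These points share libraries and a chromosome. The 19 tested members on the plus strand had a median of 0.35 and the 13 on the minus strand 0.46.

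**Figure D3:**
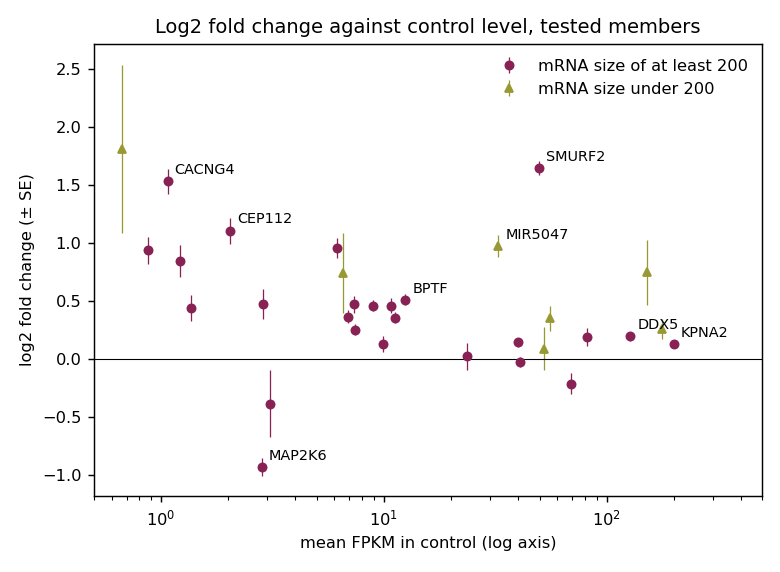
Log2 fold change (± SE) of the 32 tested members against mean control FPKM (log axis), with circles for models of at least 200 bases and triangles for shorter ones. KPNA2 and DDX5 at the right lie at 0.13 and 0.20, CACNG4 at the left at 1.53, and SMURF2 lies apart at 49.7 FPKM and 1.64.

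The genes on either side of the window differed from each other. Just outside the start, ERN1, the stress sensor IRE1 of the endoplasmic reticulum, was at 2.89, 3.33 and 3.001 FPKM in control replicates 1 to 3 and at 4.27, 4.10 and 3.80 FPKM in GDC-R replicates 1 to 3 (log2 fold change 0.38 ± 0.08). The tested gene before ERN1, SMARCD2, a subunit of SWI/SNF chromatin remodelling complexes, was at -0.12 ± 0.05 with overlapping groups. Just inside the window, SNHG25 was at 0.26. Before SMARCD2, FTSJ3 (0.18 ± 0.05) and DDX42 (0.27 ± 0.04) were called higher. At the far end MAP2K6 was the last tested member. The next tested gene, the transcription factor SOX9 at 70117161 to 70122560, was at 24.3 ± 0.611 and 25.8 ± 0.220 FPKM (SD, n = 3 each, log2 fold change 0.07 ± 0.04). Its groups did not overlap, but it did not pass the threshold. Beyond SOX9, LINC00673 (0.44 ± 0.09), SLC39A11 (0.39 ± 0.06) and COG1 (0.27 ± 0.05) were called higher, and FAM104A (-0.07 ± 0.06) was not called.

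Along chromosome 17 in windows of 2 Mb, counting every tested gene, those from 62 to 64, 64 to 66 and 66 to 68 Mb had the highest medians of the 38 windows with tested genes. Their medians were 0.47 over 20 genes, 0.37 over 9 and 0.36 over 9. Windows on either side were also above zero: 0.24, 0.20 and 0.27 from 56 to 62 Mb, and 0.14, 0.24 and 0.29 from 70 to 76 Mb. Among the members alone the medians were 0.47 over 18 genes, 0.41 over 8 and 0.16 over 6, so the last window's value rests on genes that the rule leaves out as well. The lowest window, from 18 to 20 Mb, was at -0.35 over 18 genes. The 763 tested genes of chromosome 17 that are no members had a median of 0.04, which pools unlike parts. The median was -0.12 over 316 genes from 0 to 36 Mb, 0.24 over 53 from 56 to 62 Mb and 0.26 over 81 from 70 to 76 Mb. Genes called higher made up 16.5%, 52.8% and 58.0% of these parts, beside 65.6% of the tested members and 24.5% of all tested genes. The stretch was chosen by this contrast, so nothing is read from its rank among the windows or from the members' share.

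**Figure D4:**
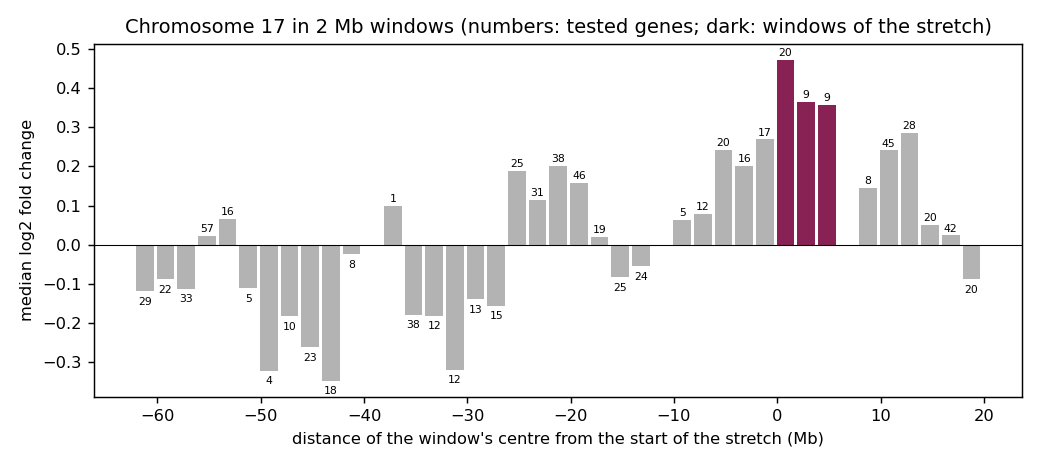
Median log2 fold change in 2 Mb windows of chromosome 17 against the distance of the window's centre from the start of the stretch, in Mb; numbers count tested genes and dark bars are the windows of the stretch. The dark bars stand at 0.47, 0.37 and 0.36, and the bars beside them at 0.27 and 0.14.

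Genes outside the stretch that work with members, or belong to the same families, moved in both directions. Of 73 tested partners and paralogues in 11 lists, 15 rose (20.5%) and 24 fell (32.9%) at an adjusted p under 0.05, beside 24.5% and 25.7% of all tested genes. Without control replicate 2 the number that rose was 9, and without GDC-R replicate 1, 2 or 3 it was 8, 6 and 7. It was 22 without control replicate 1, with 32 that fell.

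SMURF2 was higher together with part of its signalling partners. SMAD3, a transcription factor of the TGF-beta pathway, had means of 14.7 ± 0.315 FPKM in control and 32.8 ± 0.483 FPKM in GDC-R cells (SD, n = 3 each), and its log2 fold change was 1.14 ± 0.04 (edgeR adjusted p = 4.20e-07). Of the 4 tested partners, 3 rose and 0 fell, 1 more having an adjusted p above 0.05, where 24.5% and 25.7% of all tested genes did. Its paralogue SMURF1 rose by 0.19 ± 0.06 (edgeR adjusted p = 0.0389), a call lost without control replicate 2 or any GDC-R library. SMAD4, named after its values were seen, was at 0.23 and lost its call without control replicate 2 or 3 or any GDC-R library.

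Of 6 tested importins other than KPNA2, 4 fell and 0 rose, where 25.7% and 24.5% of all tested genes did. The importins' median log2 fold change was -0.26. KPNA5 (-0.21) and KPNA6 (-0.05), named after their values were seen, did not pass. KPNA3 fell from 13.3 ± 1.47 to 9.004 ± 0.620 FPKM (-0.59 ± 0.09; edgeR adjusted p = 0.000881), KPNA1 from 26.4 ± 1.32 to 20.2 ± 0.0914 FPKM (-0.40 ± 0.05; edgeR adjusted p = 0.000274) and KPNA4 from 23.3 ± 2.19 to 19.1 ± 0.752 FPKM (-0.30 ± 0.07; edgeR adjusted p = 0.00769).

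Of 7 tested relatives of PRKCA in the PKC and PKD families, 1 rose and 4 fell, beside 24.5% and 25.7% of all tested genes. PRKCD fell from 17.9 ± 1.91 to 11.7 ± 0.312 FPKM (SD, n = 3 each; -0.63 ± 0.08; edgeR adjusted p = 0.000243) and PRKCI, an atypical form, from 15.4 ± 2.80 to 11.2 ± 0.373 FPKM (-0.48 ± 0.12; edgeR adjusted p = 0.00845). PRKD3 fell by 0.24 on the log2 scale, a call lost without GDC-R replicate 2 or 3. Among 8 tested PKA partners of PRKAR1A, 2 rose and 2 fell, which is near the shares over all tested genes. The inhibitor PKIB fell by 0.74 and the regulatory subunit PRKAR2A by 0.27 on the log2 scale. PKIA, another inhibitor, rose by 0.32, a call lost when any single library other than control replicate 1 was left out.

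Among 7 tested ISWI partners of BPTF, 1 rose and 3 fell, beside 24.5% and 25.7% of all tested genes. SMARCA1, the motor subunit of human NURF, fell from 46.1 ± 2.79 to 28.9 ± 0.635 FPKM (SD, n = 3 each; -0.69 ± 0.06; edgeR adjusted p = 2.56e-05), while BAZ2A, a subunit of another ISWI complex, rose by 0.41 ± 0.05. SMARCA5, the related motor, fell by 0.20 on the log2 scale and lost its call without any single GDC-R library. With NOL11 work the t-UTP proteins of early ribosome assembly, of which 3 of 5 tested fell and 0 rose. UTP4 fell from 29.6 ± 0.671 to 19.3 ± 0.235 FPKM (-0.63 ± 0.05; edgeR adjusted p = 1.59e-05) and WDR75 by 0.28 on the log2 scale. UTP15 fell by 0.35, a call lost without GDC-R replicate 2.

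Around MAP2K6, 3 of 11 tested members of the p38 cascade rose and 2 fell. These are 27.3% and 18.2%, beside 24.5% and 25.7% of all tested genes. MAPKAPK3, a kinase that p38 activates, fell from 88.9 ± 7.15 to 59.7 ± 0.310 FPKM (SD, n = 3 each; -0.59 ± 0.06; edgeR adjusted p = 5.91e-05). MAP2K3, the closest relative of MAP2K6, fell by 0.28 on the log2 scale and lost its call when any single library other than control replicate 1 was left out. MAPK12, a p38 form, rose by 0.32 and lost its call without GDC-R replicate 1 or 2. Of 9 tested partners of GNA13, 4 rose and 2 fell, with RHOB at 0.87 ± 0.05, GNA12 at 0.30 ± 0.06 and RHOC at -0.27 ± 0.06 (edgeR adjusted p from 5.70e-06 to 0.00497).

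The remaining lists held 5 to 6 tested genes each, and of all tested genes 24.5% rose and 25.7% fell. DHX9 fell by 0.21 on the log2 scale and was the only one of 5 tested DDX5 partners to pass. Of 5 tested partners of POLG2 at the mitochondrial genome, 2 fell: the single-strand binding protein SSBP1 by 0.55 and the packaging factor TFAM by 0.41, the latter not without any single GDC-R library. SLC16A6 itself, of the monocarboxylate transporter family, had 59 to 98 fragments per library and was not tested; its paralogue SLC16A9 fell by 0.68 on the log2 scale.

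**Figure D5:**
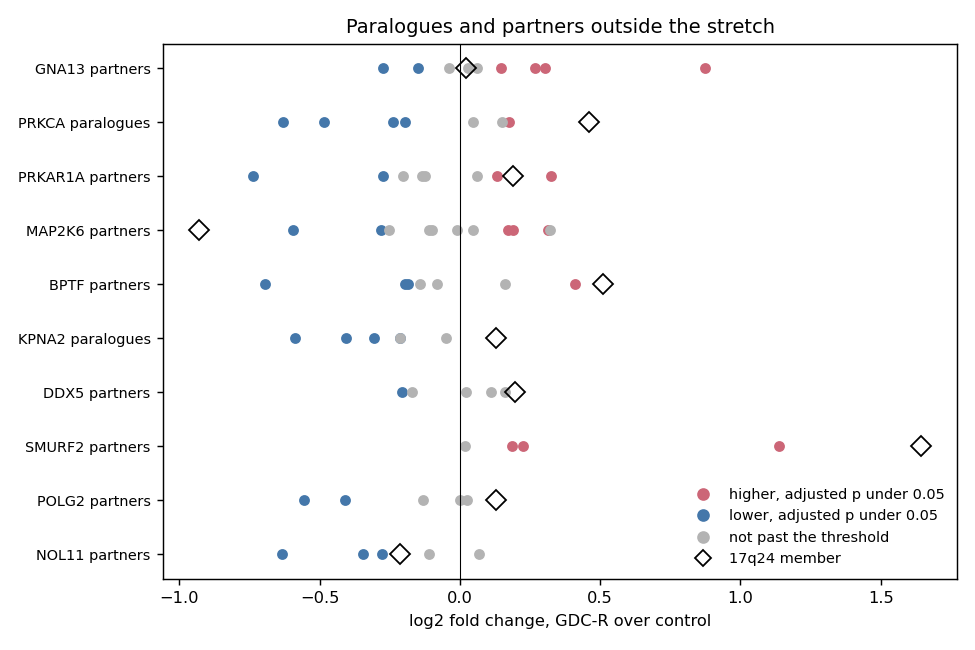
Log2 fold change (GDC-R over control) of tested paralogues and partners outside the stretch, 1 row per list without the SLC16A6 list, coloured by edgeR's adjusted p; open diamonds give the 17q24 member itself where it was tested. SMURF2 lies at 1.64 with SMAD3 at 1.14 beside it, and KPNA2 at 0.13 lies above all 6 tested importins in its row.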

How the data were processed

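The submitters' processing notes name TopHat2 2.0.6 and the build hg19. How fragments were counted, on which models and with what strandedness is not given in the sources used here. Per the file headers, the authors deposited a fragment count (whole numbers, not normalized) and FPKM for each model and library. Starts, which the files count from 0, are given counted from 1.

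Of 27734 rows, 849 with repeated symbols were left out. A mean of 1 FPKM or more over the 6 libraries left 13070 genes. These entered edgeR 4.0.16 (quasi-likelihood test, TMM scaling, no covariate), and p-values were adjusted by Benjamini-Hochberg over all 13070. Standard errors come from that fit. Members with a mean of at least 5 FPKM in the higher group, the extremes and the nearest genes outside were described in full, and up to 3 passing partners per list were named; other genes were named after their values were seen. The members and lists were chosen with earlier results of these data known. The edgeR step was checked on simulated data. Sequences are from RefSeq. The result of 1 partner gene is not reported here. Alternatives were DESeq2 1.42.0, limma-trend (limma 3.58.1) on log2(FPKM + 1) and log2(FPKM + 0.1), other filters and scalings, a replicate block, a GC correction (loess, span 0.3) and each library left out.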

Additional observations from a re-analysis of the deposited data

How the results depend on the processing

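The number of members that were higher, 21 of 32 in edgeR, was 15 to 24 under the 15 alternatives, and 18 to 24 with single libraries left out. The sets differed in size: the 15 were of 23 members with a mean of at least 5 FPKM, and without a filter 22 of 49 were higher. The number lower, 1, was 3 without a filter on low values (MAP2K6, PECAM1 and NOL11), 0 among genes with a mean of at least 5 FPKM, where MAP2K6 is not tested, 2 with a GC correction, and 1 to 2 with single libraries left out. The members' median log2 fold change of 0.40 was 0.36 on log2(FPKM + 1) and 0.43 without a filter, and 0.35 to 0.44 with single libraries left out. Partners that rose, 15 in edgeR, numbered 6 to 22 with single libraries left out, and those that fell, 24, numbered 17 to 32. GNA13 changed sign without a filter (-0.0062) and without control replicate 2 (-0.018) or 3 (-0.077), AMZ2 among genes of at least 5 FPKM (0.010) and without GDC-R replicate 2 (0.0025), and SNORA38B without control replicate 1 (-0.10); none of these values passed the threshold. With single libraries left out GNA13 ranged from -0.077 to 0.18, AMZ2 from -0.042 to 0.0025 and SNORA38B from -0.10 to 0.31. Same-numbered libraries did not deviate together (Pearson's r -0.01, 0.05 and -0.09), and with the replicate block 22 members were higher and 2 lower, 14 partners rose and 24 fell. Among the small models, MIR3064 (9 to 33 fragments per library) and MIR6080 (1 to 11) rest on few fragments and are limited by counting error. The same holds for many members under about 1 FPKM, though PECAM1 had 34 to 166 fragments. Other small models held more, such as SNORA50C with 405 to 1479.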
